A study of Mus musculus with 4 samples.

Results

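The transcripts of 8 secreted proteins, Il4, Il5, Il13, Il9, Il6, Csf2, Areg and Bmp7, were followed through the bone marrow precursors of group 2 innate lymphoid cells (ILC2s) in WT and G3SEKO mice. The genes were chosen by name, as the type 2 effector cytokines and the growth factors that ILC2s are known for. The rule used no value of the tables, but earlier results of these data were known when the genes were chosen. Of the 8, 6 were measured in both experiments among 24641 genes in experiment 1 and 24838 in experiment 2, Il6 was measured in experiment 2 alone, and Il9 was not analysed here. Type 2 cytokines are the proteins with which ILC2s and Th2 cells act on tissue. IL-5 sustains eosinophils, IL-13 drives mucus secretion and goblet cells, IL-4 acts on B cells and macrophages, and amphiregulin, encoded by Areg, acts on epithelium through the EGF receptor. The transcription factor GATA3 is needed for ILC2s to form and is known to act at the cytokine genes that lie together on mouse chromosome 11.

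αLPs are lymphoid progenitors that were sorted as Lin-CD127+FLT3-LPAM-1+ cells and read by single-cell RNA-seq (TAS-Seq on BD Rhapsody cartridges), with hashtag antibodies to tell the genotypes apart. The WT mice were C57BL/6J, and the G3SEKO mice lacked the tandem Gata3-related super-enhancers (G3SE), which had been removed by CRISPR-Cas9 with 2 guide RNAs in every cell of the animal and not in ILC2s alone; of the lines obtained, the one sorted was not named. Mice were 6 to 12 weeks old, and marrow was pooled within a genotype, from 10 WT and 8 G3SEKO mice in experiment 1 and from 7 WT and 9 G3SEKO mice in experiment 2. The labels do not say whether a hashtag marks a mouse, so each genotype of each experiment counted as 1 sample.

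The labels of experiment 2 list both of its hashtags under WT. Cells with the prefix A0303 were taken as G3SEKO, as the rule for choosing cells has it and as the numbers of cells per genotype in the study point to, and every genotype value of experiment 2 rests on this reading. After limits on reads, mitochondrial share and Id2, 681 WT and 43 G3SEKO cells were left in experiment 1 and 5130 and 1159 in experiment 2. A WT cell held a median of 396198 reads in experiment 1 and 29677 in experiment 2, and a G3SEKO cell 509911 and 42814. The tables hold reads and not unique molecules, so intervals on shares cover counting of cells only.

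Stages were read from 3 genes, each called positive at ln(1 + reads per 10000) of at least 1: Zbtb16, which encodes PLZF and marks the ILC precursor (ILCP), Icos, a co-stimulatory receptor, and Il1rl1, which encodes the IL-33 receptor ST2. The order used below is Zbtb16+ Icos- cells, Zbtb16+ Icos+ cells and Zbtb16- Icos+ cells, all of them Il1rl1-, and then Il1rl1+ cells, whatever their Zbtb16 or Icos. Experiment 1 gave 64, 34, 84 and 424 WT cells and 11, 9, 7 and 2 G3SEKO cells in that order. Experiment 2 gave 128, 102, 574 and 3548 WT cells and 213, 162, 345 and 50 G3SEKO cells. The other 75 and 778 WT cells and 14 and 389 G3SEKO cells passed the limit of none of the 3 genes. These stages are gates on transcripts, and levels of Zbtb16, Icos and Il1rl1 are no result. Gata3, the gene that the deleted enhancers serve, was at 1387 and 1039 reads per 1000000 reads (CPM) in WT Il1rl1+ cells of experiments 1 and 2 and at 211 and 294 in G3SEKO Il1rl1+ cells. In Zbtb16+ Icos- cells it was at 877 and 788 CPM in WT and at 886 and 449 in G3SEKO.

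By GENCODE M21 on GRCm38, 4 of the members lie within 647 kb of chromosome 11. Il4 spans chr11:53602982-53618669 on the minus strand, Il13 follows 12.7 kb away at chr11:53631324-53634702 on the same strand, and the repair gene Rad50 at chr11:53649519-53707319 separates them from Il5 at chr11:53720794-53725106 on the plus strand. Csf2, which encodes GM-CSF, lies at chr11:54247271-54249667 on the minus strand. The others are scattered, with Areg at chr5:91139599-91148432, Il6 at chr5:30013114-30019981, both on the plus strand, Bmp7 at chr2:172868012-172940321 and Il9 at chr13:56479277-56482246, both on the minus strand.

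The 250 bases before the start site of the 4 clustered genes are shown because these genes share a locus and GATA3 is the factor whose gene lost its enhancers. They were read from RefSeq promoters of GRCm38.p6, run 5′ to 3′ along the strand of the gene, and carry in capitals any match on either strand to a GATA word, which is AGATAA or its variant AGATAG, or TGATAA or its variant TGATAG. Il4 is shown at its upstream start, whose 250 bases hold no match, and at an internal start, which is intronic in the longest transcript. The Csf2 start of RefSeq lies 232 bases upstream of the GENCODE one, and those of Il13 and Il5 are the same in both.
Il4, upstream start, chr11:53618666-53618915, minus strand: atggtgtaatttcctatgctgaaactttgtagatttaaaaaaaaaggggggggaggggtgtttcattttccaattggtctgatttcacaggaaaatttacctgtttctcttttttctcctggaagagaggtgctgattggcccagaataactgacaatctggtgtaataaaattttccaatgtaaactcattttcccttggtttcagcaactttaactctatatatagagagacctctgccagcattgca
Il4, internal start, chr11:53617339-53617588, minus strand: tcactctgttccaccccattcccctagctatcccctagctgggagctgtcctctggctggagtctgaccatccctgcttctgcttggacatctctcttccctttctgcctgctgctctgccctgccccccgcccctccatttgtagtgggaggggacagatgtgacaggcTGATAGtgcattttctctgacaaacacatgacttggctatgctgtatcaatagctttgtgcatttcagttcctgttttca
Il13, chr11:53634703-53634952, minus strand: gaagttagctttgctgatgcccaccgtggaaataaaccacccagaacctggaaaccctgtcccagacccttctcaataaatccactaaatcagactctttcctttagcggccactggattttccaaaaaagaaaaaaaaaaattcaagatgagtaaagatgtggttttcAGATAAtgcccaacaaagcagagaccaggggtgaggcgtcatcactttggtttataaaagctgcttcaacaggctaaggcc
Il5, chr11:53720544-53720793, plus strand: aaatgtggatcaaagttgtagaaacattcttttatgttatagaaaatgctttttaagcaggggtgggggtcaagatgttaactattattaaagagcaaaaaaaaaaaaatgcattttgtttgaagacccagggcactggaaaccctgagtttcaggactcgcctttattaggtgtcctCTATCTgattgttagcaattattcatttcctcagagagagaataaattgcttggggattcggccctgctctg
Csf2, chr11:54249900-54250149, minus strand: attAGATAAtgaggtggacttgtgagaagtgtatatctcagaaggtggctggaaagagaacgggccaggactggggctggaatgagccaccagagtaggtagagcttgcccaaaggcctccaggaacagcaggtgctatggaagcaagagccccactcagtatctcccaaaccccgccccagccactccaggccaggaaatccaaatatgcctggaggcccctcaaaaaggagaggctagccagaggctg
Counted from the start site, the matches began at base -80 of the internal Il4 start, -81 in Il13, -72 in Il5, where the word is on the opposite strand, and -247 in Csf2. At the upstream start of Il4 the one match, TGATAA, began at base 15 after the start site. With 50 bases after the start included, 5 of the 7 members that have an entry (Il4, Il5, Il13, Csf2 and Il6) held a match, Areg and Il9 did not, and 29.8% of 32851 mouse promoters of that length held one. The AP-1 word TGANTCA, which overlaps none of the GATA words, was in Il6 at -249 and in Il9 at -140 and in 7.81% of promoters. These are matches of letters, not measured binding.

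Of the 4 WT gates, Il1rl1+ cells held the highest levels of Bmp7, Il4 and Csf2 in both experiments, and Zbtb16- Icos+ cells those of Il5, in experiment 1 through 1 cell. Bmp7 encodes a secreted ligand of the TGF-beta family. In WT Zbtb16+ Icos- cells Bmp7 stood at 1.4 CPM in experiment 1 and 15.4 in experiment 2, in Zbtb16+ Icos+ cells at 1.98 and 13.4, in Zbtb16- Icos+ cells at 35.3 and 60.6, and in Il1rl1+ cells at 112.8 and 142.2. The Il1rl1+ sums were above every earlier gate in both experiments, which is a description and not a test. In experiment 2, 57 of the 103 reads of the first gate came from 1 cell.

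Il4, which encodes IL-4, was also highest in Il1rl1+ cells. It stood at 0.115 and 0.60 CPM in WT Zbtb16+ Icos- cells, which is 6 and 4 reads, at 3.63 and 2.52 in Zbtb16+ Icos+ cells, at 4.04 and 16.2 in Zbtb16- Icos+ cells and at 40.2 and 30.4 in Il1rl1+ cells. Csf2 stood at 0.15 and 0.45 CPM (8 and 3 reads), 0.08 and 3.03, 12.1 and 10.5, and 21.1 and 16.1 at these 4 gates. In Zbtb16+ Icos+ cells 1 cell held most of the reads of Il4 in experiment 1 and of Csf2 in experiment 2, and the levels were 0.44 and 0.51 CPM without it. For Il4 the Il1rl1+ sums lay above all earlier sums, and for Csf2 they did so as well, by less. This too is a description, and the share of all genes that do so is not given.

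Il5, Il13 and Areg were lower and did not share one order. Il5 was at 0.82 CPM in WT Zbtb16+ Icos- cells of experiment 1 and had no read there in experiment 2, was at 0 and 0.50 in Zbtb16+ Icos+ cells, was highest at 11.9 and 8.12 in Zbtb16- Icos+ cells, and was at 5.25 and 4.76 in Il1rl1+ cells. In experiment 1, 456 of the 567 Il5 reads of Zbtb16- Icos+ cells came from 1 cell, and without it the level was 2.35 CPM, below the 3.97 of Il1rl1+ cells without their own top cell. In experiment 2 these levels were 5.64 and 3.61 CPM. Il13 had 1 and 0 reads in Zbtb16+ Icos- cells, stood at 0.04 and 2.87 CPM in Zbtb16- Icos+ cells (61 of 75 reads of experiment 2 in 1 cell, and 0.54 CPM without it) and reached 6.72 and 3.24 in Il1rl1+ cells, or 1.95 and 2.47 without their top cells. Areg had 0 and 1 reads in Zbtb16+ Icos- cells, none in Zbtb16+ Icos+ cells, 0 and 10.2 CPM in Zbtb16- Icos+ cells and 6.33 and 14.2 in Il1rl1+ cells. After each cell was thinned to equal reads, Il5 was found in 1.19% and 1.39% of Zbtb16- Icos+ cells and in 1.42% and 0.705% of Il1rl1+ cells, so that its direction between these gates did not hold in both experiments. Il6, measured in experiment 2, had no read in Zbtb16+ Icos- cells and stood at 2.07 CPM in Zbtb16- Icos+ cells and 2.0 in Il1rl1+ cells, or 0.65 and 1.69 without the top cell of each.

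By CPM, Bmp7 was above Il4 and Il4 above Csf2 in WT Il1rl1+ cells of both experiments. Reads of bead-captured transcripts may come mostly from one end, and whether they scale with length was not tested. Divided by the length of all exons, the level was 32.7 and 24.8 CPM per kb for Il4, 28.1 and 35.4 for Bmp7 and 26.4 and 20.2 for Csf2. On that scale Il4 and Bmp7 traded places between the experiments, and Csf2 was below both in each. Areg was at 5.21 and 11.7 CPM per kb, Il13 at 5.58 and 2.69, Il5 at 3.42 and 3.10, and Il6 at 0.83 in experiment 2, so that Il4, Bmp7 and Csf2 exceeded the rest in both experiments. Over the 2 experiments the CPM of WT Il1rl1+ cells was 127.5 ± 20.7 for Bmp7, 35.3 ± 6.92 for Il4, 18.6 ± 3.53 for Csf2, 10.3 ± 5.55 for Areg, 5.01 ± 0.346 for Il5 and 4.98 ± 2.46 for Il13 (SD, n = 2 each).

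**Figure D1:**
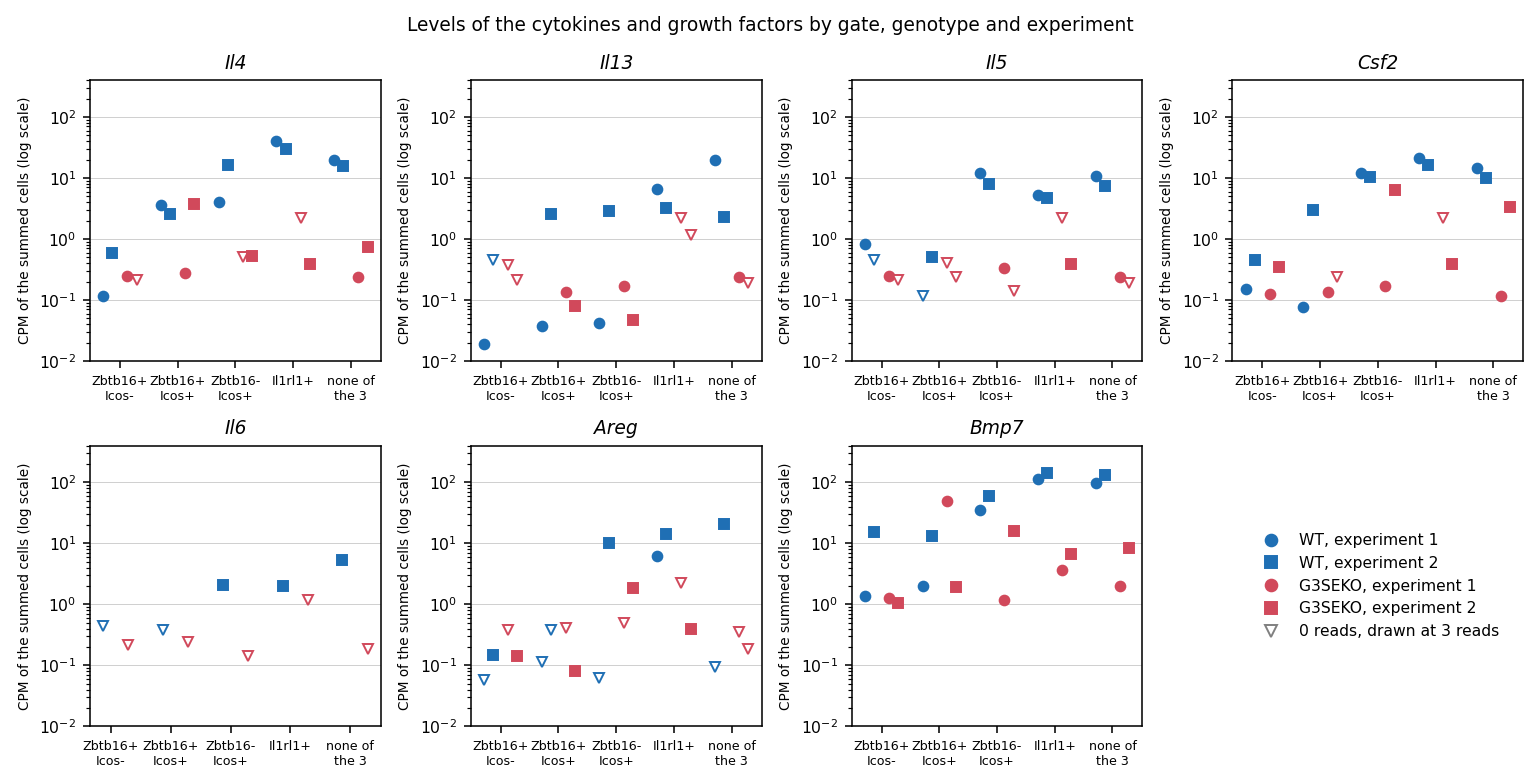
Level of each member in CPM (log scale) at each gate, by genotype and experiment; open triangles mark sums with no read, drawn at the level of 3 reads. In WT, Bmp7, Il4 and Csf2 are highest at the Il1rl1+ gate, Il5 is highest in Zbtb16- Icos+ cells (in experiment 1 through 1 cell), and the G3SEKO points of the last gate rest on 2 and 50 cells.

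The rise from the first to the last gate was tested in 1 fit of the 8 WT sums with the experiment as a block. By the quasi-likelihood test of edgeR, with p-values adjusted after Benjamini and Hochberg, Il4 rose in Il1rl1+ cells over Zbtb16+ Icos- cells (log2 change 7.19, SE 1.15, adjusted p = 0.0396). It was higher in both experiments, by 349.5 times in experiment 1 and 50.6 times in experiment 2, on a base of 6 and 4 reads. The call was lost with the limit of the gates set at 0.5 (log2 change 5.98, adjusted p = 0.272) or 1.5 (log2 change 5.78, adjusted p = 0.166) in place of 1. Il4 was the only 1 of 6 members tested that passed, where 0.823% of 19323 genes passed in that direction. All 6 estimates were positive, with a median log2 change of 6.78 against 0.09 over all genes, or 5.37 when the 4 members with a sum of 3 reads or fewer were set to their ratio against a floor of 3 reads. Of the 6, 5 had an unadjusted p under 0.05, as did 8.33% of all genes in that direction.

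Bmp7 missed the threshold by a little in the same test (log2 change 4.77, SE 0.88, adjusted p = 0.0574), with Il1rl1+ sums 80.7 and 9.2 times those of Zbtb16+ Icos- cells. With every cell thinned to the read limit of experiment 2 it passed (log2 change 3.35, adjusted p = 0.0020) beside Il4 (adjusted p = 0.0065), where 3.82% of genes passed. For Csf2 the log2 change was 6.36 (SE 1.57, adjusted p = 0.124), on a base of 8 and 3 reads. Il13 (adjusted p = 0.182) and Areg (adjusted p = 0.225) had at most 1 read in a sum of the first gate, so that their fitted changes are not given. Nor is a fold against a floor of reads, since Areg was read in 2.36% and 2.25% of WT Il1rl1+ cells and Il13 in 4.48% and 0.62%, and the 64 and 128 cells of the first gate may miss such rare cells. Il5 (adjusted p = 0.465), 6.4 times higher in experiment 1 and with no read in the first gate in experiment 2, was the one member of the 6 whose unadjusted p also missed 0.05. DESeq2 called 5 of the 6, all but Il5, where it called 6.14% of genes.

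For Bmp7 and Csf2 the larger step on the log scale lay before the Il1rl1+ gate in both experiments. For Bmp7 in experiment 2 it lay in Zbtb16- Icos+ cells negative for Il18r1, a gene taken up below, at 89.7 CPM. Cells of that gate positive for Il18r1 were at 5.95 CPM, below the 15.4 of Zbtb16+ Icos- cells. In experiment 1 they were at 22.5 CPM, against 1.4 in Zbtb16+ Icos- cells. Zbtb16- Icos+ cells exceeded Zbtb16+ Icos- cells 35.1 and 27.1 times for Il4, 25.2 and 3.9 times for Bmp7, and 78.7 and 23.4 times for Csf2, the last on a base of 3 reads. For Il4, 2 cells held 91 and 86 of the 193 Zbtb16- Icos+ reads of experiment 1, and without them the level was 0.34 CPM, so that the larger step then lay at the Il1rl1+ gate. Il5 was 14.4 times higher in Zbtb16- Icos+ cells in experiment 1 with the cell of 456 reads included, and in experiment 2 it had no read in the first gate. No member passed edgeR's test of this step, where 0.0932% of genes passed as higher. The adjusted p was 0.128 for Il4, 0.193 for Bmp7, 0.217 for Csf2 and 0.417 for Il5, and 3 of 6 had an unadjusted p under 0.05, as did 7.17% of all genes on the higher side. DESeq2 called those 3, Il4, Csf2 and Bmp7, and 5.71% of genes. Thinned to equal reads, Bmp7 passed by edgeR as well (log2 change 2.45, adjusted p = 0.0345), where 1.69% of genes did.

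From Zbtb16- Icos+ to Il1rl1+ cells Bmp7 was 3.2 and 2.3 times higher, Il4 9.95 and 1.9 times and Csf2 1.8 and 1.5 times, while Il5 was lower, with log2 ratios of -1.17 and -0.77 (2 reads added to the sums). None of the 6 members passed edgeR's test of this step, none had an unadjusted p under 0.05 in it and DESeq2 called none. By unadjusted p under 0.05 DESeq2 had 2 of the 6 as higher, Il4 and Il13, where 2.9% of genes were. edgeR called 0.00518% of genes higher and 0.0104% lower (2.19% and 3.51% by unadjusted p), and DESeq2 called 0.489% higher. The smallest unadjusted p was 0.0563, for Il4 (log2 change 2.09, SE 0.89, adjusted p = 0.884). Il5 had a log2 change of -0.96 in this fit, and the direction turned to 1.88 when Zbtb16- Icos+ cells were limited to those with no Il1rl1 read at all.

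Few cells carried most members at any moment. A read of Bmp7 was found in 51.4% of WT Il1rl1+ cells of experiment 1 (95% exact binomial interval 46.5 to 56.3) and in 26.4% (25.0 to 27.9) of experiment 2, at median depths of 370422 and 31160 reads. Il4 was found in 18.6% (15.0 to 22.7) and 10.3% (9.36 to 11.4), and Csf2 in 28.1% (23.8 to 32.6) and 9.36% (8.42 to 10.4). The other members were found in under 5% of these cells, from 4.48% for Il13 in experiment 1 to 0.507% for Il6 in experiment 2.

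As a background, Il1rl1- cells positive for Ccr6, Eomes or Klrd1, which mark LTi, NK and ILC1 lineages, were counted (38 and 69 WT cells, median depths 446422 and 41187 reads). Of these, 34.2% (19.6 to 51.4) and 10.1% (4.18 to 19.8) held a Bmp7 read, though at 2.88 and 2.15 CPM. Il4 and Csf2 were each found in 10.5% and 1.45% of them, always at 1 or 2 reads a cell, and Il5, Il13 and Areg in none, which allows shares up to 9.25% and 5.21% by the exact interval. Single reads of Bmp7, Il4 and Csf2 in the deep cells of experiment 1 were therefore not read as expression.

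When each cell was thinned to the read limit of experiment 2, the WT share for Bmp7 was 1.56% in Zbtb16+ Icos- cells in both experiments, 9.52% and 12% in Zbtb16- Icos+ cells and 22.2% and 19.3% in Il1rl1+ cells. The background cells were then at 5.26% and 1.45%. For Il4 the thinned shares were 0 in both experiments, 3.57% and 4.88%, and 8.96% and 6.79% at the same gates, and for Csf2 1.56% and 0, 4.76% and 2.79%, and 9.67% and 4.99%. Over these 3 gates the shares of Bmp7 and Il4 rose with their levels in both experiments, as did those of Csf2. In Zbtb16+ Icos+ cells between them the share and the level of Bmp7 moved apart in both experiments, and the Il4 share of experiment 1 stayed at 0. The thinned share was 0 and 4.90% for Bmp7, 0 and 0.98% for Il4 and 0 and 1.96% for Csf2.

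**Figure D2:**
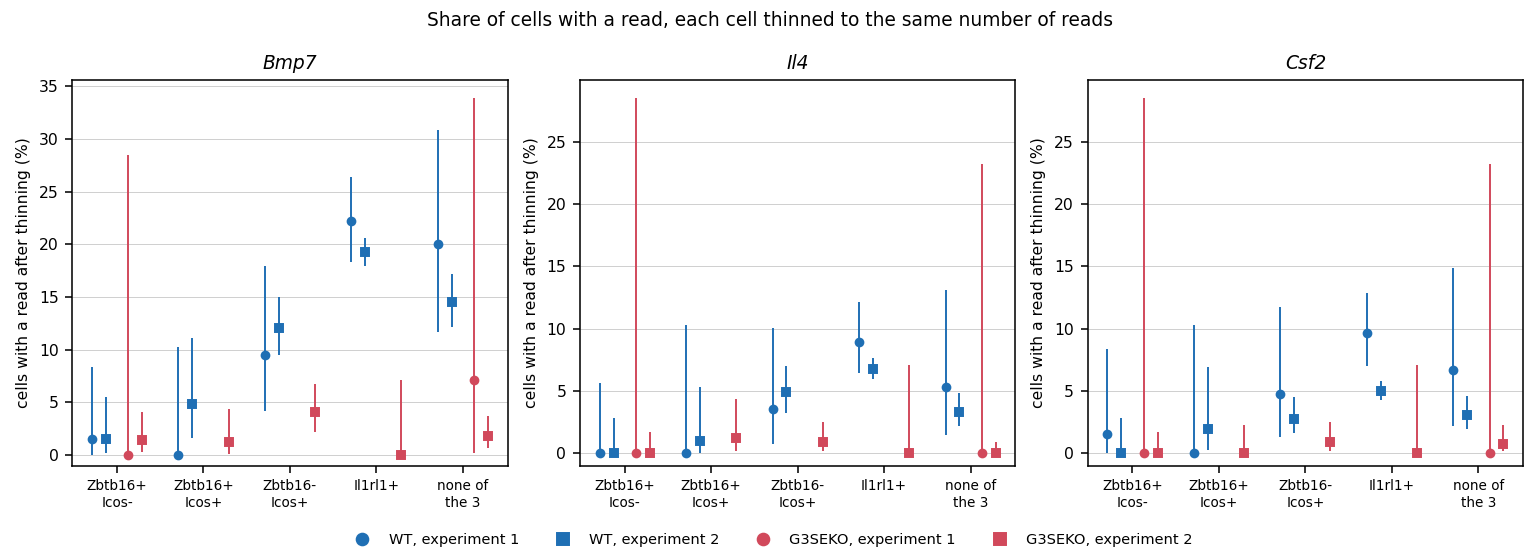
Share of cells (percent) with a read of Bmp7, Il4 or Csf2 after each cell was thinned to the read limit of experiment 2, by gate, genotype and experiment, for sums of 10 cells or more; bars are 95% exact binomial intervals. For Bmp7 the WT shares run from 1.56% to 22.2% and 19.3%, and no thinned read was left in the 50 G3SEKO Il1rl1+ cells.

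The reads of Il5, Il13 and Areg came from a handful of WT Il1rl1+ cells. The 10 cells with the most reads held 99.0% and 78.0% of the Il5 reads, 99.3% and 94.2% of the Il13 reads and 100% and 57.4% of the Areg reads. For Il13 a single cell of experiment 1 held 912 of 1283 reads, or 71.1%. Bmp7 was the most evenly spread, with 25.3% and 6.13% of its reads in its top 10 cells, and Il4 with 41.9% and 15.6% and Csf2 with 38.2% and 17.3% came next, in an order that changed between experiments. In experiment 1, where cells carried 3 hashtags, the WT Il1rl1+ level of Bmp7 was 105.4, 126.5 and 107.2 CPM and that of Il4 was 35.9, 52.5 and 32.4. Il13 was at 2.31, 3.39 and 15.1 CPM over the same hashtags, the last of them holding the cell with 912 reads.

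**Figure D3:**
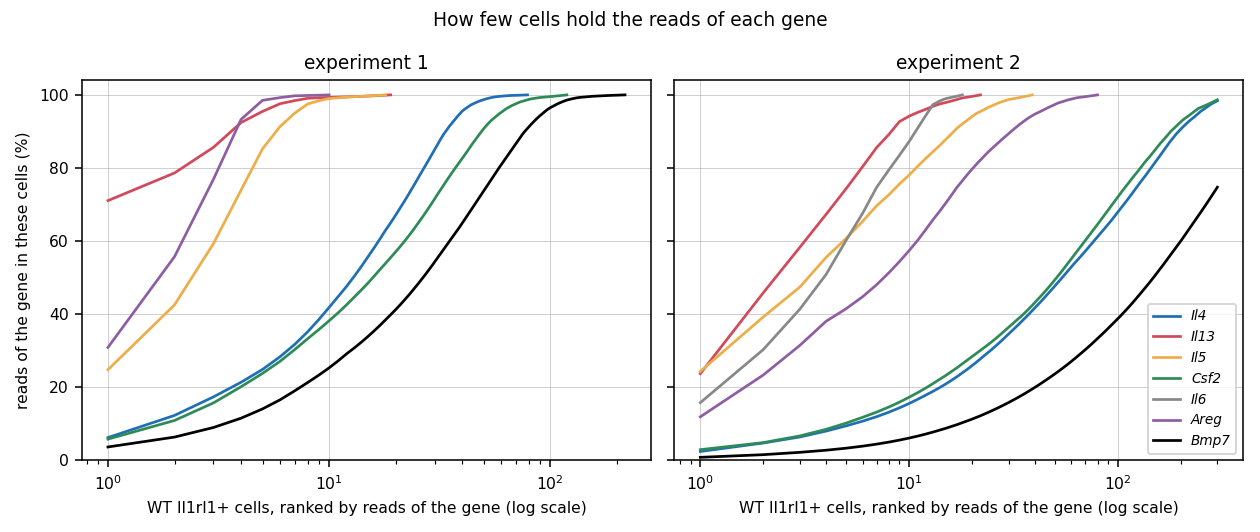
Cumulative share of each member's reads (percent) against the number of WT Il1rl1+ cells ranked by their reads of it, drawn to at most 300 cells, for each experiment. Il13, Il5 and Areg reach most of their reads within 10 cells, while the Bmp7 curve climbs slowest.

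At least 1 member was read in 72.9% of WT Il1rl1+ cells of experiment 1 and in 41.1% of experiment 2, or in 36.6% and 30.2% after thinning. At least 2 were read in 125 cells (29.5%) and 292 cells (8.23%), and no cell held 5. Il5 and Il13 were read together in 1 and 3 cells, where the product of their shares gives 0.81 and 0.24. Il4 and Bmp7 were together in 42 and 109 cells against products of 40.6 and 96.9, and Csf2 and Bmp7 in 68 and 110 cells against 61.2 and 87.7. Pairs from the same cells share depth, and Bmp7 holders were deeper than the other cells (474414 against 311284 reads in experiment 1 and 39783 against 29014 in experiment 2, medians).

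Within WT Il1rl1+ cells the members divided differently by Icos. Il5 was higher in Icos+ than in Icos- cells, at 6.26 against 2.38 CPM in experiment 1 and 7.60 against 0.81 in experiment 2, which is 2.6 and 9.4 times. Il13 was at 8.02 against 3.02 and 4.25 against 1.82 CPM, or at 1.57 against 1.07 and 2.93 against 1.13 without the top cell of each sum. Areg was at 4.04 against 12.8 and 10.7 against 19.1 CPM, but in experiment 1 this direction rested on 2 cells, with 0.52 against 0.16 CPM without the top 2 cells of each sum. Bmp7 was at 122.9 against 84.4 and 144.3 against 139.2 CPM, and Il4 at 42.4 against 34.0 and 26.3 against 36.1, so that its direction changed between experiments. These splits were not tested.

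Il18r1, a chain of the IL-18 receptor that marks ILC precursors, also divided them. Among WT Zbtb16- Icos+ cells Bmp7 was at 22.5 and 5.95 CPM in Il18r1+ cells (47 and 126 cells) and at 64.5 and 89.7 in Il18r1- cells (37 and 448 cells), 2.9 and 15.1 times higher. Il4 was at 0.03 and 3.75 CPM in the Il18r1+ and 13.2 and 22.9 in the Il18r1- cells, the first of these being 1 read. Il5 and Csf2 did not keep a direction: Il5 was at 1.38 and 9.59 against 35.9 and 7.33 CPM, and Csf2 at 4.87 and 14.7 against 28.6 and 8.33. The cell of 456 reads is in the 35.9 CPM of Il5, which was 4.67 without it, and the turn of Csf2 in experiment 2 rested on 2 cells, with 5.10 against 6.18 CPM without the top 2 cells of each sum. In WT Il1rl1+ cells Bmp7 was at 90.2 and 128.8 CPM in the Il18r1+ and 117.7 and 143.1 in the Il18r1- cells. Il5 went the other way there, at 17.7 and 9.59 CPM in the Il18r1+ cells (58 and 190) and 2.59 and 4.42 in the Il18r1- cells (366 and 3358). Without the top cell of each sum these levels were 10.6 and 3.75 against 1.66 and 3.18 CPM, and without the top 2 cells 5.26 and 2.05 against 0.94 and 2.42, so that the direction of experiment 2 rested on 2 cells. Csf2 there was at 6.39 and 7.47 CPM in Il18r1+ and 24.3 and 16.8 in Il18r1- cells.

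**Figure D4:**
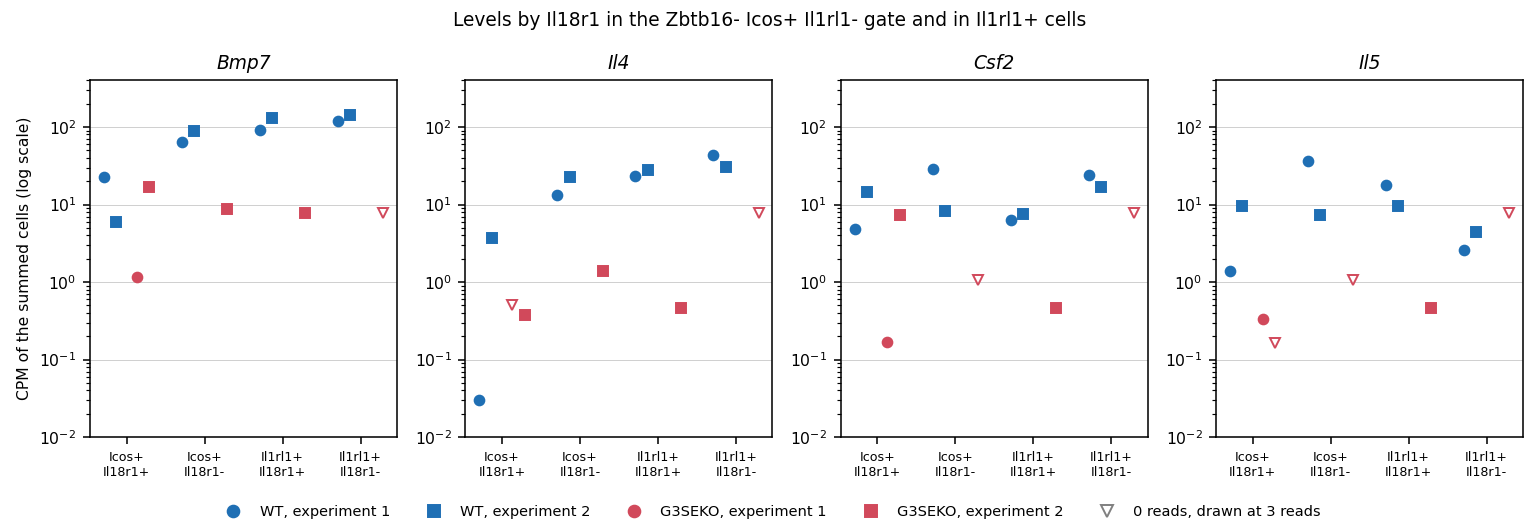
Level in CPM (log scale) of Bmp7, Il4, Csf2 and Il5 in Il18r1+ and Il18r1- cells of the Zbtb16- Icos+ and Il1rl1+ gates, by genotype and experiment, for sums of 5 cells or more; open triangles mark no read, drawn at 3 reads. In WT Zbtb16- Icos+ cells Bmp7 and Il4 are lower in Il18r1+ cells, and in WT Il1rl1+ cells Il5 is higher there (in experiment 2 through 2 cells).

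In G3SEKO mice few cells reached the Il1rl1+ gate, and those that did held few reads of the members. The 50 G3SEKO Il1rl1+ cells of experiment 2 held 17 Bmp7 reads in 3 cells, or 6.63 CPM against 142.2 in WT, and the 2 cells of experiment 1 held 5 reads, or 3.70 CPM against 112.8. That is 30.5 times lower in experiment 1 and 21.5 times lower in experiment 2. Il4 had no read in experiment 1 against 40.2 CPM in WT, on 2 cells, where 18.6% of WT cells held a read, and 1 read (0.39 CPM against 30.4) in experiment 2. Il5, Csf2 and Areg had 1 read each in experiment 2, and Il13 and Il6 none, against 3.24 and 2.0 CPM in WT. As 0.62% and 0.507% of WT Il1rl1+ cells held Il13 and Il6, 50 cells can lack them without any change in level: 0 of 50 cells allows a share of up to 7.11% by the exact interval. Il5 and Areg, each read in 1 of the 50 cells, were also rare in WT, in 39 and 80 of 3548 Il1rl1+ cells. Their shares show no difference.

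In Il1rl1+ cells edgeR's test of genotype recovered 14% of 64-fold changes on simulated data. None of the 6 members passed this test, none had an unadjusted p under 0.05 in it, and DESeq2 called none. The fit called 0.0684% of 19005 genes lower (1.28% by unadjusted p), and DESeq2 0.02%. By unadjusted p under 0.05, DESeq2 had 5 of the 6 as lower, all but Il5, where 4.16% of genes were, and edgeR on thinned cells had 2 of 4, where 3.01% were. All 6 estimates were negative, with a median log2 change of -6.14, or -3.04 with the 5 members that had sums of 3 reads or fewer set to a floor of 3 reads. The median over all genes was -1.42, and 1 of the 4 sums rested on 2 cells. For Bmp7 the log2 change was -4.66 (SE 2.43, unadjusted p = 0.0552, adjusted p = 0.999). In experiment 2, 6.00% (1.25 to 16.5) of G3SEKO and 26.4% (25.0 to 27.9) of WT Il1rl1+ cells held a Bmp7 read at median depths of 42235 and 31160 reads, and the G3SEKO share was under the 10.1% of the background cells. These shares describe 1 pooled sample per genotype and are no test of genotype.

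The few G3SEKO Il1rl1+ cells differed from WT Il1rl1+ cells beyond these genes. In experiment 2 Il18r1 was at 877 against 53.6 CPM and Il2ra, which encodes CD25, at 151 against 582. NK and ILC1 markers summed to 139 against 19.9 CPM and T cell markers to 2118 against 633, with 3 of 10 T cell markers at 0 in G3SEKO and Cd3e at 0.4 against 0.2 CPM. The 2 cells of experiment 1 had NK and ILC1 markers at 2952 against 21.1 CPM, most of it Klrd1 (1663 CPM). The erythroid gene Hba-a1 was at 0.74 and 0 CPM in G3SEKO against 20.6 and 22.9 in WT Il1rl1+ cells, and in Zbtb16- Icos+ cells it was at 1.33 and 0.09 against 1.55 and 15.7. The part of these differences in the low levels of the members was not tested.

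Before the Il1rl1+ gate the level of Il4 was lower in G3SEKO cells in both experiments, though on 27 G3SEKO cells in experiment 1. Over the 3 Il1rl1- gates together (182 and 804 WT, 27 and 720 G3SEKO cells), Il4 was at 0.19 and 1.21 CPM in G3SEKO against 2.33 and 11 in WT, 12.4 and 9.1 times lower, with a mean log2 ratio of -3.29 ± 0.22 (SD, n = 2) after 2 reads were added to the sums. In experiment 1 the top 2 WT cells held 91 and 86 of the 294 reads, without which the WT level was 0.93 CPM, and the share of cells with a read was 11.1% in G3SEKO and 11% in WT. In experiment 2 that share was 1.11% and 6.34%. Il5 was at 0.19 CPM and no read in G3SEKO against 4.83 and 5.31 in WT, 25.7 times lower in experiment 1. In experiment 2, 0 of 720 G3SEKO cells held a read, which allows up to 0.511% by the exact interval, against 1.62% of WT cells. The WT level of experiment 1 was 1.23 CPM without the cell of 456 reads, and 14.8% of G3SEKO against 5.49% of WT cells held an Il5 read there, each G3SEKO cell a single one. Across all 1159 kept G3SEKO cells of experiment 2 there was 1 read of Il5 and none of Il6. Il4 and Il5 sums of G3SEKO lay below those of WT in both experiments, but the gates had unlike parts in them. Zbtb16- Icos+ cells were 84 of 182 and 574 of 804 in WT and 7 of 27 and 345 of 720 in G3SEKO. In these Il4 was at 0 and 0.52 CPM in G3SEKO against 4.04 and 16.2 in WT. In Zbtb16+ Icos+ cells alone Il4 was at 0.27 and 3.77 CPM in G3SEKO against 3.63 and 2.52 in WT. In Zbtb16+ Icos- cells it was at 0.25 and 0 CPM (2 and 0 reads) against 0.115 and 0.60 (6 and 4 reads).

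Csf2 stood at 2.95 CPM in G3SEKO against 7.42 in WT in experiment 2, with 83 of 141 G3SEKO reads in 1 cell (1.22 against 5.90 CPM without the top cells), and at 0.14, from 3 reads, against 4.65 in experiment 1. Bmp7 did not keep a direction, with 18.0 against 14.3 CPM in experiment 1 and 7.89 against 44.0 in experiment 2. In experiment 1, 352 of its 382 G3SEKO reads came from 1 cell, and the direction there rested on that cell. In WT, 440 of 1811 reads were in 1 cell. Areg was at 0.90 against 6.58 CPM in experiment 2, with 40 of 43 G3SEKO reads in 1 cell, and had no read in either genotype in experiment 1. Il13 was at 0.09 CPM in G3SEKO and 0.03 in WT in experiment 1, and at 0.04 and 2.33 in experiment 2. Il6 had no read against 1.33 CPM in WT in experiment 2, 37 WT reads being in 1 cell and the level 0.42 CPM without it.

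No gene passed edgeR's test of genotype in Il1rl1- cells (0% of 18652 genes), so no member did. Of the 5 members tested, Il13 being under the filter on low counts, all had negative estimates. Their median log2 change was -3.01 against -0.06 over all genes, or -3.19 with 3 members set to a floor of 3 reads, and 2 had an unadjusted p under 0.05, where 1.49% of genes did so as lower. These were Il4 (log2 change -3.36, SE 0.91, unadjusted p = 0.0213, adjusted p = 0.974) and Il5 (unadjusted p = 0.0322), which had no read in 1 of its sums. DESeq2 called 1 of them, Il5 (adjusted p = 0.0112), where it called 0.585% of genes lower. Bmp7 had a log2 change of -1.06 (SE 0.96, unadjusted p = 0.333), which became 0.89 in Il18r1+ cells alone.

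The genotypes differed in make-up within these gates. Among Zbtb16- Icos+ cells 283 of 345 G3SEKO cells of experiment 2 and all 7 of experiment 1 were Il18r1+, against 126 of 574 and 47 of 84 in WT. In the Il18r1+ cells of that gate Bmp7 did not keep a direction, at 1.17 CPM in G3SEKO and 22.5 in WT in experiment 1 and at 17.1 and 5.95 in experiment 2. Csf2 was at 0.17, from 1 read, against 4.87 in experiment 1 and at 7.41 against 14.7 in experiment 2, or 2.91 against 7.89 without the top cells. Over the whole gate both were lower in G3SEKO in both experiments. Bmp7 was at 1.17 against 35.3 CPM in experiment 1 and at 15.9 against 60.6 in experiment 2. Csf2 was at 0.17 against 12.1 and at 6.42 against 10.5, with 83 of 136 G3SEKO reads of experiment 2 in 1 cell. Il4 was at 0.38 against 3.75 CPM in these Il18r1+ cells in experiment 2, while in experiment 1 it had 0 reads in G3SEKO and 1 in WT, which shows no difference. Cells that passed none of the 3 gates held Bmp7 at 2.01 and 8.29 CPM in G3SEKO and 97.1 and 131.1 in WT, and Il4 at 0.24 and 0.75 against 19.5 and 15.7. The WT cells among them held Il5 at 10.9 and 7.37 CPM, above the 5.25 and 4.76 of WT Il1rl1+ cells. Il13 was at 19.6 (571 of 622 reads in 1 cell) and 2.30 CPM against 6.72 and 3.24. Areg was at 0 and 20.6 CPM against 6.33 and 14.2, and Il6 at 5.26 against 2.0 in experiment 2. Csf2 was below, at 14.8 and 9.85 CPM against 21.1 and 16.1. In experiment 1 these cells also held basophil and mast cell genes, with Mcpt8 at 121 CPM in G3SEKO and 9.42 in WT, Ms4a2 at 71.0 and 8.45 and Gata2 at 22.4 and 17.1, whose part in the Il4 level was not tested.

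Whether the rise to Il1rl1+ cells differed by genotype was tested as an interaction over 8 sums. By edgeR this test recovered 17.5% of 64-fold changes on simulated data. edgeR called none of 19768 genes (0%), and none of the 6 members had an unadjusted p under 0.05 in this fit, as 1.56% of genes did on the lower side. DESeq2 called no member and 0.0565% of genes lower. By unadjusted p under 0.05 Bmp7 alone was lower by DESeq2, where 4.24% of genes were, and alone of 4 members by edgeR on thinned cells, where 2.64% were. The estimate for Bmp7 was -3.59 on the log2 scale (SE 1.81, unadjusted p = 0.0947, adjusted p = 0.935).

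Signs of other marrow cells were looked for, since basophils and mast cells also make Il4. Mcpt8, Ms4a2 and Fcer1a, which define basophils and mast cells, were at or near 0 in WT Il1rl1+ cells of experiment 1 (0.0314, 0.0105 and 0.0105 CPM), and Gata2 was at 0.0262 and 0.0135 CPM. The whole list (7 and 4 markers measured) summed to 372 and 341 CPM in Zbtb16+ Icos- cells, 2 and 1 of its markers being at 0 there, and to 144 and 86.0 in Il1rl1+ cells with none at 0, nearly all of it Cpa3 and Kit, which precursors also express. Il4 holders had 0.66 and 0.92 times the list's level of other Il1rl1+ cells. Erythroid markers rose between the gates as the members did. They were at 2.15 and 2.55 CPM in the first gate and 21.8 and 24.0 in Il1rl1+ cells, nearly all Hba-a1. In the first gate 1 and 2 of 4 markers were at 0, and none in the last. Among WT Il1rl1+ cells the erythroid level of holders over that of other cells kept no direction. It was 1.73 and 0.73 for Il4, 2.55 and 0.78 for Bmp7 and 0.63 and 1.16 for Csf2. Without cells positive for Hba-a1, Cpa3, Mcpt8, Cd3e, Cd79a or Lyz2, the Il4 change over these gates was as large (log2 change 9.19, edgeR adjusted p = 0.0345), and that of Bmp7 was 4.77 (adjusted p = 0.102).

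Of the genes that the members act through, Il9r, the IL-9 receptor, was higher in WT Il1rl1+ than in Zbtb16+ Icos- cells (85.3 and 122.2 against 5.56 and 8.70 CPM; log2 change 3.92, edgeR adjusted p = 0.0067). It was at 4.45 and 1.95 CPM in G3SEKO Il1rl1+ cells. Il6st, the shared signal chain of IL-6 receptors, rose from 8.51 and 29.8 to 105.5 and 172.0 CPM (log2 change 3.12, adjusted p = 0.0140), and Il2rg, the shared chain of the IL-4 and IL-9 receptors, also rose (log2 change 0.78, adjusted p = 0.0467). These were 3 of 15 receptor genes tested, with none lower, where 0.823% of all genes passed as higher and 1.23% as lower. By genotype in Il1rl1+ cells none of the 15 passed edgeR's test in either direction, with 1 at an unadjusted p under 0.05 and none called by DESeq2.

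Among 20 receptors through which ILC2s are induced, 4 rose and 1 fell in the same WT comparison (0.823% of all genes rose and 1.23% fell). Of these, Il1rl1 and Icos defined the gates. Il17rb, the IL-25 receptor, rose (log2 change 2.65, adjusted p = 0.0121) and Il18r1 fell (log2 change -2.76, adjusted p = 0.0093). By genotype in Il1rl1+ cells, where the median over all genes was -1.42, Il18r1 (log2 change 3.68) and the IL-7 receptor chain Il7r (0.85) were higher and Il2ra (-4.64) was lower by edgeR, and DESeq2 called none of these 3. Of 27 transcription factors of type 2 cytokine genes 5 rose and 2 fell in WT, against the same 0.823% and 1.23% of all genes. Gfi1 (3.44), Junb (2.90) and Runx1 (2.39) were among those that rose, and Tcf7 (-5.14) and Rora (-1.85) fell, with edgeR adjusted p from 0.0105 to 0.0307. By genotype Tcf7 was higher (4.67) and Gata3 (-2.26) and Junb (-4.38) were lower by edgeR, and DESeq2 called none of them. For genotype in Il1rl1+ cells edgeR called 0.0947% of all genes higher and 0.0684% lower.

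For the counts that follow, 0.823% of all genes passed edgeR's test as higher and 1.23% as lower in WT Il1rl1+ over Zbtb16+ Icos- cells. Of 15 other ILC2 effector genes tested 1 rose, Csf1, which encodes M-CSF, from 0.44 and 1.05 to 44.4 and 61.0 CPM (log2 change 6.37, edgeR adjusted p = 0.0276), and it had no read in G3SEKO Il1rl1+ cells. Of 9 cytokines of ILC1, NK and ILC3 lineages, Ltb rose (1.39) and the chemokine Ccl5 fell (-3.18). Of 6 neighbours of the chromosome 11 cluster Septin8 rose (2.79). Of 16 immediate early genes, which respond fast to stimulation and handling, Junb, Jund and Zfp36 rose, with Junb lower by genotype in Il1rl1+ cells. Holders of Il13 had 1.43 and 1.71 times and holders of Areg 1.45 and 1.5 times the immediate early level of other WT Il1rl1+ cells, whereas for holders of the other members the ratio lay between 0.898 and 1.14. Of the marker lists of other cells, Kit, Trbc1 and Eomes passed as lower in WT Il1rl1+ cells, 1 each of 3 basophil and mast cell, 10 T cell and 6 NK and ILC1 markers tested. Klrd1 and Il2rb passed as higher in G3SEKO Il1rl1+ cells, as did 0.0947% of all genes, and of the pair DESeq2 called Klrd1 alone. No B lineage, myeloid, erythroid, LTi or proliferation marker passed edgeR's test in either comparison. Of 20 such markers tested in each, 1 between WT gates and 0 by genotype had an unadjusted p under 0.05, and DESeq2 called 1 and 0.

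The genes whose level went most like that of each member over 17 sums of 10 or more cells were ranked by Pearson's r of log2(CPM + 1) among 12551 genes. The sums share gates, depth and libraries, so the values describe and do not test. Nearest to Bmp7 was Lpcat2 (0.96), then Slc7a8 and Pitpnm2 (0.95 each). Nearest to Csf2 was Hpgds (0.96), the synthase of prostaglandin D2, followed by Bmp7 itself (0.93) and Ptpn13 (0.93). Il4 was nearest to Gm5544 (0.92), Plekhh1 (0.90) and Il9r (0.90), Il5 to Gata1 (0.95), Gm5544 (0.94) and Csgalnact1 (0.91), Il13 to Acbd7 (0.91), and Areg to Wipf3 (0.94) and the neuropeptide gene Calca (0.93).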

How the data were processed

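The authors deposited raw read counts per gene and cell for each of the 2 experiments, made with Cutadapt, Bowtie2, the GRCm38/mm10 build and Seurat 4 per the submitters' processing notes. Cells were kept at 83012 reads or more in experiment 1 and 6733 or more in experiment 2, with at most 10% mitochondrial reads and Id2 at ln(1 + reads per 10000) of at least 1, and doublets named by their hashtags were left out (1 and 100 cells). The experiments shared 5 barcode numbers. Sums of reads per gate, genotype and experiment were tested by edgeR 4.0.16 (R 4.3.3) with the quasi-likelihood test, TMM, an experiment block and Benjamini-Hochberg adjustment over all genes, called at an adjusted p under 0.05. The code was tested on simulated data with 200 changed genes. For genotype in Il1rl1+ cells edgeR recovered 0% of 4-fold and 14% of 64-fold changes, and for the interaction 0% and 17.5%. In Il1rl1- cells it recovered 37% and 80%, with 30 and 31 false calls. Between WT gates it recovered 14.5% to 23% and 68% to 75%. The genotype test in Il1rl1+ cells and the interaction could therefore miss most 64-fold changes. DESeq2 1.42.0 and the other alternatives are given in the closing section. With 2 sums a group and the experiment as a block, p-values measure how far a change differs between experiments, of pooled mice. The genotype fits in Il1rl1+ or Il1rl1- cells leave 1 residual degree of freedom and lean on the spread of other genes. Shares carry 95% exact (Clopper-Pearson) intervals. The members, gene lists and tests were chosen with earlier results of these data known. Genes named from a list are those called in the comparison, at most 3 in each direction by size of the log2 change. Sums from the same experiment share a library; the labels say no more about pairing, so the block stands for the experiment.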

Additional observations from a re-analysis of the deposited data

Results flagged for a closer look

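WT cells that the Id2 limit left out, and that no comparison above used, also held reads of members. These 56 cells of experiment 1 and 945 of experiment 2 had Bmp7 at 38.0 and 85.7 CPM, Il4 at 18.3 and 22.7, Csf2 at 6.04 and 9.64, and Areg at 0.535 and 5.52. Each of these levels was above that in G3SEKO cells left out by the same limit (20 and 288 cells), where Bmp7 was at 1.06 and 2.89 CPM and Csf2 at 0 and 1.56. Il5 was at 0.08 and 0.37 CPM in the same WT cells. Kept WT Il1rl1+ cells were at 112.8 and 142.2 CPM for Bmp7, above the cells left out in both experiments.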

How the results depend on the processing

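The count of members that passed in WT Il1rl1+ over Zbtb16+ Icos- cells was 1 and changed most with the settings: it was 2 with no Id2 limit, with the limit of the gates at 0.5, with no filter on low counts and with thinned cells, 5 by DESeq2, and 0 with the limit at 1.5. For Zbtb16- Icos+ over Zbtb16+ Icos- cells the count of 0 became 1 with thinned cells and 3 by DESeq2, and for genotype in Il1rl1- cells 0 became 1 by DESeq2. The share of WT Il1rl1+ cells with a read of any member, 57% as the mean of both experiments, was 33.4% with thinned cells and 26.3% when a member had to reach 1 on the scale of ln(1 + reads per 10000). It was 41.1 to 72.9% with 1 experiment left out. The reported count was 0 in the other comparisons, so that a count staying at 0 shows no stability. Of 459 log2 changes 3 turned sign: Il5 to 1.88 from Zbtb16- Icos+ to Il1rl1+ cells when cells with no Il1rl1 read alone were used, a choice made after seeing the data, Areg to -0.039 at that step with the limit at 1.5, and Bmp7 to 0.89 by genotype in Il18r1+ cells of the Il1rl1- gates, also chosen after seeing the data; the cause was not tested. Leaving out the cell with the most reads of a member, also chosen after seeing the data, moved 28 of 76 WT levels by more than the SD between experiments.

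With no replicate block (no experiment term) 1 member passed in Il1rl1+ over Zbtb16+ Icos- cells, Il4 with a log2 change of 7.04, and Bmp7 had one of 4.09; no call changed in any comparison. Counts of calls from 1 experiment alone cannot be made, since no residual degrees of freedom are left. With the limit at 1.5 the genotype test in Il1rl1+ cells could not be fitted and the interaction was not fitted, as no G3SEKO Il1rl1+ cell of experiment 1 was left. Depth limits the lowest members: 3 reads in the sum of 50 G3SEKO Il1rl1+ cells are 1.17 CPM, and levels under that rest on 1 or 2 reads.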

Other observations

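Il5 was read in dividing cells of experiment 2. WT cells positive for Mki67 or Top2a, genes of dividing cells, numbered 30 in experiment 1 and 141 in experiment 2. Il5 had no read in the former and stood at 17.9 CPM in the latter, where 12 of the 141 cells (8.51%, 95% exact binomial interval 4.48 to 14.4) held it. Bmp7 in the dividing cells was at 79.2 and 22.0 CPM, below the 112.8 and 142.2 of all WT Il1rl1+ cells, and Il4 was at 1.24 and 14.6. Without the top cell of each sum Bmp7 was at 41.6 and 18.6 CPM, Il4 at 0.15 and 9.32, and Il5 at 12.5 in experiment 2.

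Of all WT cells 62.3% and 69.2% were Il1rl1+, against which the place of each member's holders can be set. Holders of Csf2 were Il1rl1+ in 76.3% and 81.4% of cases, of Il4 in 74.5% and 79.1% and of Bmp7 in 66.5% and 78.1%. Holders of Il5 were Il1rl1+ in 58.1% (18 of 31) and 66.1% (39 of 59), below the share of all cells in both experiments, on few cells. Holders of Il13 were so in 73.1% and 68.8%, of Areg in 100% (10 of 10) and 70.2%, and of Il6 in 72% in experiment 2. No test was run on these shares.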
